A study of Mus musculus with 6 samples.

Results

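The circadian clock genes of the small intestinal mucosa were examined in alk-SMase KO mice and WT mice. The group was fixed by symbol and has 10 members, Arntl, Clock, Per1, Per2, Per3, Dbp, Nr1d1, Nr1d2, Tef and Ciart. Of these, 9 could be placed on a row of the deposited table, among 12402 genes so placed, and Arntl was not analysed here. The placing was needed because the gene identifiers of the table stand beside the values of other genes, and it was done by the rank of each gene in K79S and W83S, with the same offsets for all genes of a rank range.

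RNA of the middle small intestinal mucosa came from 3 KO and 3 WT mice of the C57BL/6 strain, 1 library per mouse. Wherever 3 values are listed, those of KO stand in the order K79S, K82S, K86S and those of WT in the order W83S, W89S, W90S. The KO mice lack exon 2 of Enpp7, the gene of alkaline sphingomyelinase (alk-SMase), an enzyme of the gut brush border that splits sphingomyelin. The exon was removed with Cre recombinase, and the driver of the Cre, the age and sex of the mice and the hour at which they were killed are not given in the sources used here. All mice ate standard pellets and were killed under isoflurane anesthesia. No treatment of the sequenced mice is described in the sources used here. Values are FPKM, the fragments mapped to a gene scaled to its length and to the mapped reads of the library, so levels can be compared between genes.

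The circadian clock is a loop of transcription that runs in nearly every cell with a period of about a day. CLOCK and ARNTL (also named BMAL1) bind E-boxes in DNA and switch on the Per, Cry, Nr1d, Dbp and Ciart genes, whose products then feed back on the loop. PER and CRY proteins and CIART repress CLOCK and ARNTL, NR1D1 and NR1D2 repress Arntl, and DBP and TEF pass the rhythm on to other genes through D-boxes. In the intestine the timing of meals is a strong cue for this loop, and sugar, peptide and lipid absorption follow the time of day.

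Promoters of 4 of these genes are shown because they carry the letters through which the loop is known to act on its own members. RefSeq promoters (GRCm38.p6, 250 bases before to 50 after the start site) were matched by symbol for 9 of the 10 members, all but Per2, with 14 start sites. Exact matches on either strand were sought for the E-box CACGTG, the E′-box CACGTT, the D-box TTATGTAA and the core TAGGTCA of the element bound by NR1D1 and NR1D2. No match overlapped another. Capitals mark the matches, and each sequence is read 5′ to 3′ on the strand of its gene. Ciart lies at chr3:95882179-95882478 (minus strand), Per1 at chr11:69098699-69098998 (plus strand), Tef at chr15:81802423-81802722 (plus strand) and Per3 at chr4:151044616-151044915 (minus strand).
Ciart: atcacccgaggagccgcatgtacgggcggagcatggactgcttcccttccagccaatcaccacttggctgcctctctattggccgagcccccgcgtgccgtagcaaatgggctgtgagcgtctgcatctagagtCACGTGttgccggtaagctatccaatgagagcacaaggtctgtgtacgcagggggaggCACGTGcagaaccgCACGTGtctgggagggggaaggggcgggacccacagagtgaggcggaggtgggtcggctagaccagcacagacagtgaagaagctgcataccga
Per1: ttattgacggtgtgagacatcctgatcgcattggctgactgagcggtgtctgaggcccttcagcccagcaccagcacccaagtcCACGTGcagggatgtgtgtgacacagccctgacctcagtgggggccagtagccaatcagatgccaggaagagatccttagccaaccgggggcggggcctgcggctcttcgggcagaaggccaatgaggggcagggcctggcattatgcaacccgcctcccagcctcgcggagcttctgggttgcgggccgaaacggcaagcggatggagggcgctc
Tef: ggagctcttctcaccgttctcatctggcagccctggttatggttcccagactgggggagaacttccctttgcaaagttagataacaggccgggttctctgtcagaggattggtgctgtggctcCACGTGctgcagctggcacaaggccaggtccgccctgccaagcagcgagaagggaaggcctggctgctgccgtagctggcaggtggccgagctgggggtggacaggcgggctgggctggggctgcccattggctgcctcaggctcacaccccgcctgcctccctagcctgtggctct
Per3: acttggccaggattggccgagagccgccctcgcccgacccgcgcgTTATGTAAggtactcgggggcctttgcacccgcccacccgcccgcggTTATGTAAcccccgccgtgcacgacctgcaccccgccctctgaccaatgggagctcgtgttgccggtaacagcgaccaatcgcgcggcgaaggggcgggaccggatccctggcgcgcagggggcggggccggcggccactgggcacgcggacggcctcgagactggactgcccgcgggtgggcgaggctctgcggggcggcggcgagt

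Ciart holds 3 E-boxes, Per1 and Tef hold 1 each, and Per3 holds 2 D-boxes in the strand of the gene. Of all 32851 promoters of this length in the table, 7.15% hold the E-box, 4.68% the E′-box, 0.938% the D-box and 2.61% the TAGGTCA core. The second start site of Tef has an E-box as well, and the start site of Nr1d1 has an E′-box 28 bases upstream. A start site of Arntl has the TAGGTCA core 31 bases into the transcribed part. The windows of Clock, Dbp and Nr1d2 hold none of these letters, which says nothing about binding elsewhere in these genes.

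**Figure D1:**
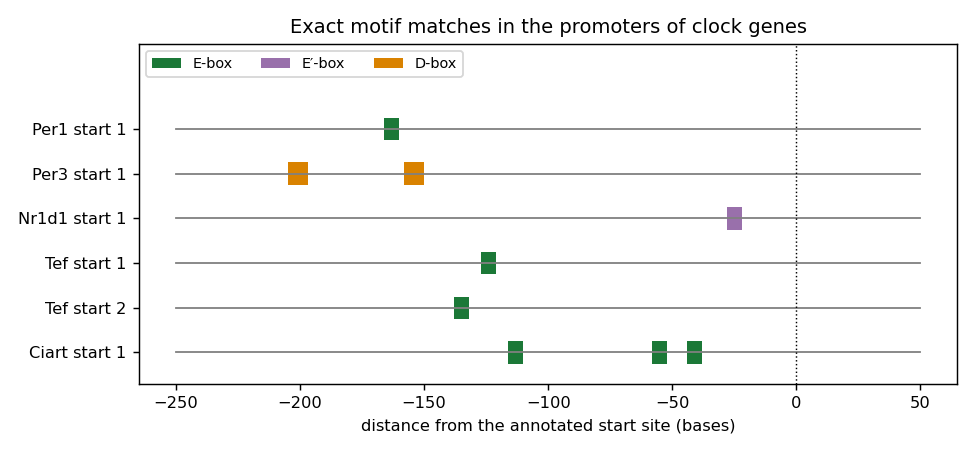
Positions of exact motif matches (coloured blocks) in the promoters of clock genes, with distance from the annotated start site in bases on the x axis and 1 line per start site with a match among the genes with values. Ciart has 3 E-boxes within 116 bases upstream of its start, and the D-boxes of Per3 start 205 and 158 bases upstream.

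Several libraries stood apart before any clock gene was considered. W83S held gastric transcripts, with the 6 placed markers of gastric surface, chief and parietal cells summing to 38524 FPKM (Tff1, Pgc and Gkn1 highest) against at most 5.24 FPKM in any other library. K82S had the lowest Enpp7 (129 FPKM, against 406 to 670 FPKM in the other 5) and the highest sum of 4 B and plasma cell markers (241 FPKM against 67.4 to 132 FPKM, with Jchain, Cd79a and Cd79b highest). In K79S the Y-linked gene Eif2s3y was listed at 0 and Ddx3y had 0.0279 FPKM, while the other 5 libraries had 5.69 to 8.16 FPKM and 2.93 to 4.01 FPKM. Markers of small intestinal enterocytes were high in every library (10 genes summing to 21427 to 31114 FPKM, with Apoa1, Fabp2 and Anpep highest). All libraries thus held small intestinal epithelium, which leaves the region along the intestine unchecked. The whole-gene FPKM of Enpp7 does not show the loss of 1 exon and leaves the genotypes unchecked.

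Between all KO and all WT libraries, no clock gene passed the test. Of the 9 genes, 0 passed an adjusted p-value under 0.05 with a fold change above 1.5 or below 2/3 (limma on log2(FPKM + 1), Benjamini-Hochberg adjustment over 13089 rows), where 0.00764% of all rows tested passed. At an unadjusted p under 0.05 the number was also 0 of the 9, against 1638 of 13089 rows. In 0 of the 9 did the KO and WT libraries separate without overlap, while every KO library exceeded every WT library in 5.9% of all rows and lay below each of them in 11.3%. The values of most clock genes were spread more widely among the KO libraries than among those of WT.

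Dbp, the PAR bZIP factor that is among the most strongly rhythmic transcripts of most tissues, had 49.5, 12.6 and 54.8 FPKM in KO. In WT it had 25.5, 26.1 and 31.0 FPKM. K79S and K86S thus lay above all WT libraries and K82S below all of them. The group means were 39.0 ± 23.0 FPKM for KO and 27.5 ± 3.01 FPKM for WT (SD, n = 3). KO thus stood 0.25 above WT on the log2 scale, with a 95% confidence interval from -1.02 to 1.51 (adjusted p = 0.865 from limma, and p = 0.9 by exact permutation of the 6 libraries, two-sided, where 0.1 is the lowest p that 3 against 3 allow). The highest KO library held 4.34 times the Dbp of the lowest, whereas the WT libraries differed by at most 1.22 times.

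Tef is a close relative of Dbp. It had 14.0, 5.77 and 15.9 FPKM in KO, and 10.5, 13.1 and 11.1 FPKM in WT. As for Dbp, K82S lay lowest and the other KO libraries highest, while the order within WT differed. The log2 fold change was -0.07 (95% confidence interval -0.90 to 0.77, adjusted p = 0.947 from limma), and it turned to 0.10 when the FPKM of each library were rescaled to a common sum.

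The 3 Period genes encode the repressors that time the loop. Per3 had 4.32, 1.10 and 3.65 FPKM in KO, beside 2.01, 2.31 and 1.89 FPKM in WT. Per2 had 13.4, 5.44 and 14.1 FPKM in KO, beside 10.7, 10.7 and 8.27 FPKM in WT. For both genes K82S was below every WT library and the other KO libraries were above every WT library. Per1, which is also switched on by glucocorticoids and other acute signals, differed from this order. It had 6.03, 4.42 and 13.9 FPKM in KO and 6.11, 7.43 and 7.48 FPKM in WT, so that only K86S lay above WT. The log2 fold changes over all libraries were 0.28 for Per3, 0.05 for Per2 and 0.05 for Per1, with standard errors of 0.34 to 0.36 (adjusted p from limma 0.748, 0.960 and 0.958).

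Ciart (Chrono), a repressor of CLOCK and ARNTL, was the gene with the widest range of FPKM relative to its level. Its FPKM were 2.10, 0.673 and 3.40 in KO, and 1.45, 2.64 and 1.95 in WT. K86S was 5.06 times K82S, but K79S lay within the WT range. The means were 2.06 ± 1.36 FPKM for KO and 2.01 ± 0.598 FPKM for WT (SD, n = 3).

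The nuclear receptors NR1D1 and NR1D2 (REV-ERBα and REV-ERBβ) form the second arm of the loop. Nr1d1 was the most abundant clock gene of the group, with 78.2, 61.3 and 69.8 FPKM in KO and 53.0, 66.8 and 61.8 FPKM in WT. It varied least, 1.47 times from the lowest to the highest library, and its lowest value was in W83S, not in K82S. Nr1d2 had 10.4, 7.85 and 13.4 FPKM in KO and 8.23, 8.83 and 10.2 FPKM in WT, with K82S again lowest. The log2 fold change was 0.20 for Nr1d1 (95% confidence interval -0.21 to 0.61) and 0.17 for Nr1d2 (-0.31 to 0.66), with adjusted p of 0.635 and 0.735 from limma.

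Clock, the partner of ARNTL at E-boxes, did not share the low level in K82S. It had 2.40, 3.15 and 3.17 FPKM in KO, and 1.78, 1.78 and 3.05 FPKM in WT. The KO values overlapped those of WT through W90S alone, and the log2 fold change was 0.30 (95% confidence interval -0.16 to 0.77, adjusted p = 0.508 from limma). In Clock the SD of log2(FPKM + 1) was larger in WT (0.31) than in KO (0.17), while in the other 8 genes it was larger in KO, a direction found in 68.1% of all rows tested.

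**Figure D2:**
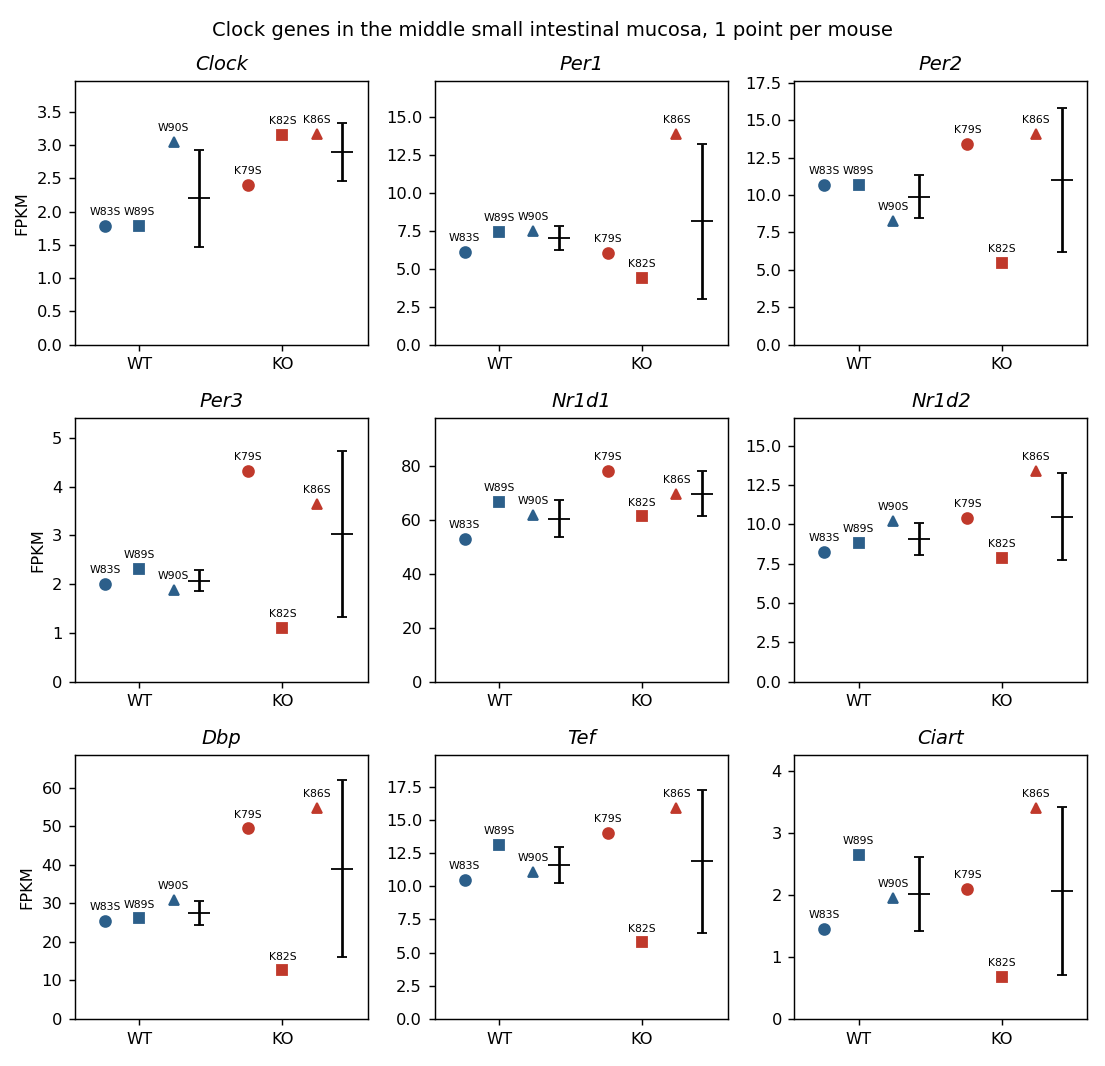
FPKM of the 9 clock genes (y axis, starting at 0), 1 point per mouse, for WT (blue) and KO (red), with the mean and SD of each group in black. In Dbp, Per2, Per3, Tef and Nr1d2 the red square of K82S lies below all WT points and the other KO points lie above them.

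Read by library, the KO mice did not lie together. K82S was the lowest of the 6 libraries for 7 of the 9 genes, all but Clock and Nr1d1, where 13.1% of all rows tested were lowest in K82S. K86S was the highest for 7 of the 9, and K79S for Nr1d1 and Per3, where 12.5% and 15.6% of all rows were highest in these libraries. For 5 genes (Per2, Per3, Dbp, Nr1d2 and Tef) K79S and K86S lay above all WT libraries and K82S below all of them, an order seen in 345 rows or 2.64% of those tested. This order was chosen after the values were seen, and the counts are descriptions. Relative to the WT mean, Dbp was 1.89 times in K79S with K86S and 0.458 times in K82S, and Per3 was 1.92 times and 0.531 times.

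Without K82S, Dbp and Per3 passed the thresholds. Dbp then stood at 0.90 on the log2 scale (SE 0.15, adjusted p = 0.033 from limma) and Per3 at 0.70 (SE 0.14, adjusted p = 0.0398 from limma), with 2 KO against 3 WT libraries. Both genes were lowest in K82S, so leaving it out was bound to raise their fold changes. The adjusted p without K82S are thus descriptions and no separate support for a difference. As listed above, both genes lay above all WT libraries in the 2 KO libraries kept. These were 2 of the 9 clock genes, while 0.4% of the 12764 rows tested passed in this direction, and 1133 rows (8.88%) passed in the other. The other 7 had log2 fold changes from 0.26 (Clock) to 0.45 (Per2) with adjusted p from 0.143 to 0.541. When W83S was left out as well, the log2 fold change was 0.85 for Dbp and 0.68 for Per3, and neither passed (adjusted p = 0.0543 and 0.0789 from limma). Without K79S or without K86S, Dbp stood at -0.05 and -0.12. The sign for Dbp thus changed with the KO mice that entered the comparison.

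**Figure D3:**
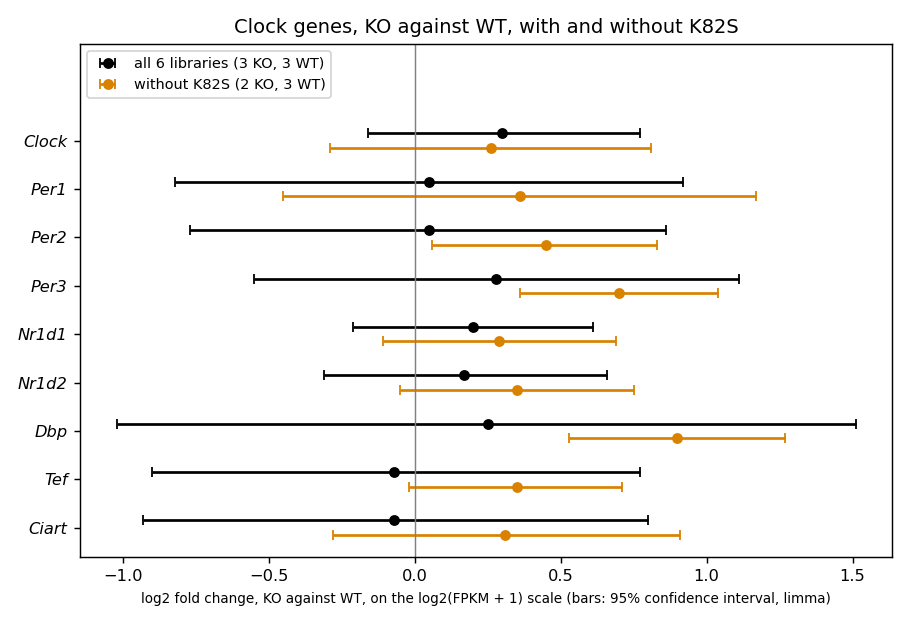
log2 fold change of each clock gene, from log2(FPKM + 1) of KO minus WT (x axis), with 95% confidence intervals from limma, over all 6 libraries (black) and without K82S (orange). All 9 black intervals span 0, and without K82S those of Per2, Per3 and Dbp lie above 0.

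Reads of some clock genes could belong to a neighbour, since the handling of strand is not stated. By GENCODE M21, 18.0% of the exonic bases of Dbp are shared with Sphk2 on the opposite strand, 8.55% of those of Nr1d1 with Thra, and 2.45% of those of Tef with Gm17597. Sphk2 had 51.7, 35.9 and 37.8 FPKM in KO and 32.7 to 38.1 FPKM in WT, and so K82S was not low in it. Thra had 23.3 FPKM in K82S, within the 20.6 to 26.2 FPKM of WT. Dbp (ENSMUSG00000059824) lies on chromosome 7 from 45705088 to 45710203 of mm10 and Per3 (ENSMUSG00000028957) on chromosome 4 from 151003652 to 151044665. The other 6 clock genes share no exonic base with another annotated gene.

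Other parts of the clock were read from a list of 20 genes, of which 13 were placed and tested. None of the 13 passed over all libraries, and their median log2 fold change was 0.23, beside 0.17 for the 9 clock genes and -0.06 for all rows tested. In Cry1, Cry2 and Csnk1d every KO library exceeded every WT library, and in 0 of the 13 did every KO library lie below WT. Cry1, a partner of the PER proteins, had 5.19, 7.25 and 7.51 FPKM in KO against 4.67, 5.03 and 4.29 FPKM in WT. Cry2, its paralog, had 5.59, 3.57 and 5.19 FPKM against 2.71, 3.28 and 2.56 FPKM. Unlike the Period genes, both kept K82S above WT. Their log2 fold changes were 0.42 and 0.57 (adjusted p = 0.393 from limma for each, exact permutation p = 0.1), and Cry2 passed without K82S (0.74, adjusted p = 0.0357 from limma).

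Csnk1d, a kinase that marks PER proteins for decay, had 30.7 to 32.7 FPKM in KO and 25.5 to 28.6 FPKM in WT. Bhlhe40, an E-box repressor, was lowest in K82S like Dbp (14.0 FPKM against 19.9 to 30.8 FPKM elsewhere). Hlf, the third PAR bZIP factor, and Usp2, a deubiquitinase with a strong rhythm, were named after their values were seen, together with Npas2 and Nfil3. Hlf had 0.406 FPKM in K82S and 4.37 FPKM in K86S, with 1.32 to 1.63 FPKM in the other 4. Usp2 had 10.3 FPKM in K82S and 12.9 to 23.0 FPKM elsewhere.

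Nfil3 and Npas2, which are known to peak at other hours than Dbp, were highest in K82S, as were 22.1% of all rows tested. Nfil3, a repressor that competes with DBP at D-boxes, was highest in K82S at 2.58 FPKM, with 0.872 and 1.10 FPKM in K79S and K86S and 1.45, 0.452 and 0.923 FPKM in WT. Npas2, a stand-in for CLOCK, was also highest there, at 7.21 FPKM against 4.39 to 6.39 FPKM in the others. Neither passed between KO and WT (adjusted p = 0.648 and 0.502 from limma). With 1 mouse at this level, these are values of a single library.

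**Figure D4:**
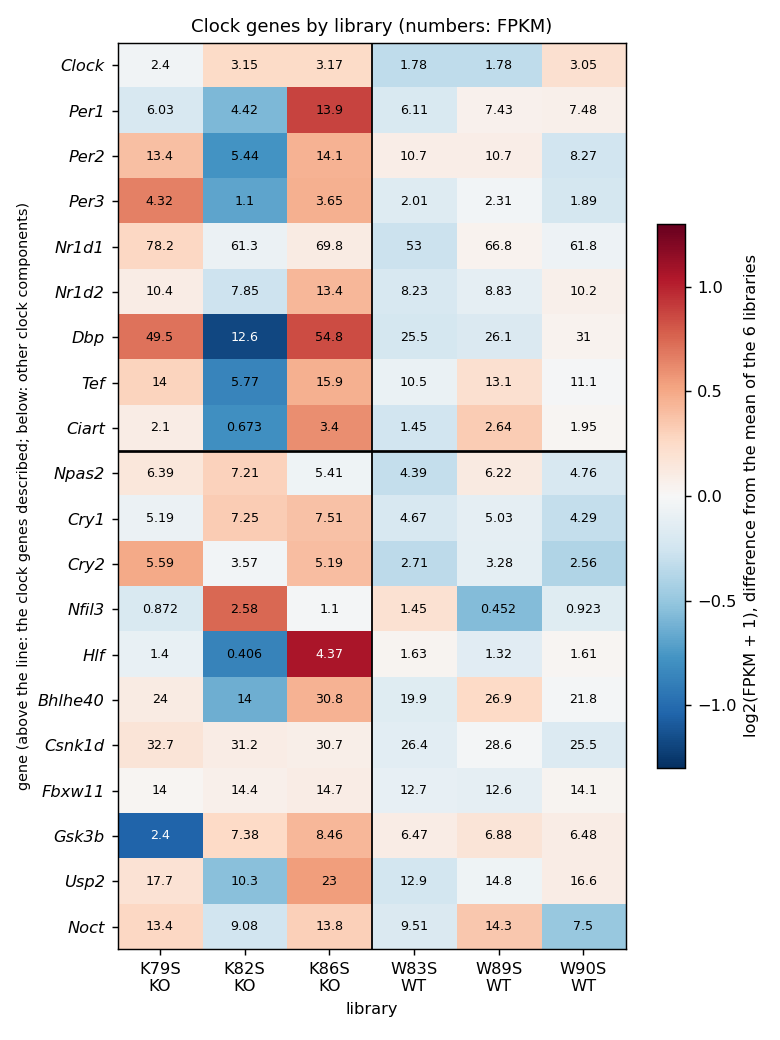
log2(FPKM + 1) of each gene (rows) in each library (columns) as the difference from the mean of the 6 libraries, with the FPKM printed in the cells. The column of K82S is blue for most clock genes above the line and red for Nfil3, Npas2 and Cry1 below it.

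The genes whose pattern over the 6 libraries was most like that of Dbp were taken from 3452 genes that spanned at least 1 on the log2(FPKM + 1) scale. These were Ormdl3 (Pearson r = 0.992), Slc47a1 (0.991), 1810055G02Rik (0.989), Gm12538 (0.988) and Cyp4v3 (0.985), none of which is a clock gene. Ormdl3, a regulator of sphingolipid synthesis, had 74.3, 34.9 and 76.0 FPKM in KO and 52.4, 48.5 and 58.8 FPKM in WT. Among clock genes r with Dbp was 0.949 for Usp2, 0.945 for Per3, 0.931 for Tef, 0.913 for Per2, 0.858 for Bhlhe40, 0.85 for Ciart, 0.826 for Hlf and 0.736 for Per1. It was -0.372 for Gsk3b and -0.608 for Nfil3. Clock, Nr1d1 and Nr1d2 spanned only 0.59, 0.55 and 0.70 and were not among the 3452 genes. Each of the 5 genes most like Dbp thus had a higher r with it than any of these clock genes. The points of each correlation are 6 libraries of 1 experiment, and no p-value is given.

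Genes under clock control outside the loop were read from a further list. Of 15 outputs known from other tissues, 12 were tested, 0 passed and 4 were lowest in K82S. Pck1, the gluconeogenic enzyme, had 248, 53.1 and 204 FPKM in KO and 67.9, 237 and 56.8 FPKM in WT, so W83S and W90S were near K82S. Por, the electron donor of cytochromes P450, had 43.0 FPKM in K82S and 62.1 to 136 FPKM elsewhere. Cdkn1a, a cell cycle inhibitor, had 172 to 193 FPKM in KO and 127 to 224 FPKM in WT. The median log2 fold change of the 12 was 0.05.

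Absorption genes with a known daily rhythm were lowest in K82S for 7 of 10, as were 5 of the 10 enterocyte markers. Of all rows tested, 13.1% were lowest in K82S. Apoa4, a chylomicron protein, had 2820 FPKM in K82S and 3340 to 10434 FPKM elsewhere, and Slc5a1, the sodium-glucose transporter, 623 FPKM against 902 to 1506 FPKM. Mttp, which loads lipid onto apolipoprotein B, had 246 FPKM in K82S and 221 FPKM in W89S, the lowest. Abcb1a, a drug efflux pump, was the 1 gene with all KO libraries (130 to 173 FPKM) above all WT libraries (82.8 to 115 FPKM). The 10 enterocyte markers summed to 21427 FPKM in K82S, the lowest of the 6 libraries, and to 23124 to 31114 FPKM elsewhere. The 5 that were lowest in K82S were Fabp2, Sis, Lct, Alpi and Apoa1. Lct had 76.3 FPKM in K82S and 163 to 490 FPKM elsewhere, and Alpi 355 FPKM and 405 to 728 FPKM. Of the other 5, Mep1a was highest in K82S (398 FPKM, with 49.4 to 218 FPKM in WT), and Anpep had 2249 FPKM there against 1504 to 1867 FPKM in WT. The low Dbp, Per2, Per3 and Tef of K82S thus stood beside low values of 5 of the 10 enterocyte genes and high B cell genes. The part of cell content in the clock values was not tested. In bulk tissue, fewer cells of a type and less RNA per cell cannot be told apart.

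Genes that respond to acute signals or to glucocorticoids, as Per1 does, were also read. Of 10 immediate early genes tested, 9 had a positive log2 fold change, 0 passed, and in 3 of them (Jun, Zfp36 and Btg2) every KO library exceeded every WT library, as in 5.9% of all rows tested. Fos, the most abundant of them, had 198, 88.0 and 201 FPKM in KO and 89.9, 146 and 62.0 FPKM in WT. Jun had 69.8 to 81.4 FPKM in KO and 30.8 to 58.8 FPKM in WT, and Junb overlapped. Of 9 glucocorticoid responsive genes tested, 0 passed and 4 had a positive value. Mt1, a metallothionein, had 30.4 to 52.6 FPKM in KO and 77.5 to 181 FPKM in WT, Mt2 had 6.13 to 19.4 FPKM and 16.9 to 116 FPKM, Sgk1 overlapped, and the phosphatase Dusp1 had 4.31 to 6.03 FPKM against 2.93 to 4.14 FPKM. Of these 9 genes, 4 were highest in K86S, where Per1 was highest, and 5 in a WT library.

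Markers of other cells moved with the libraries as follows. All 7 T cell genes tested (Cd3e, Cd3g, Cd3d, Cd8a, Gzma, Gzmb and Lck) were higher in every KO library than in every WT library, summing to 157 to 222 FPKM and 72.1 to 115 FPKM, where 5.9% of all rows tested were so separated. The 7 crypt genes tested, Olfm4, Pcna and Mki67 being the most abundant, had a median log2 fold change of -0.75, and their sums were 26.0, 67.1 and 39.5 FPKM in KO against 63.8 to 113 FPKM in WT. Within KO, K82S was thus nearest to WT in the sum of crypt genes, and it was the only KO library below WT in Dbp. Smooth muscle genes (Mylk, Acta2 and Myl9 highest) summed to 34.5 to 62.1 FPKM in KO and 32.3 to 74.6 FPKM in WT. Of 10 acinar genes 2 were placed, Cela1 and Ctrb1, at 14.5 FPKM in W83S and at most 3.91 FPKM elsewhere. Of the regional markers Fabp1, Guca2a and Gata4 were the most abundant, with 0 of 5 tested genes past the threshold. Of these 5, 2 were lowest in K82S, Gata4 (11.3 FPKM against 25.4 to 47.2 FPKM elsewhere) and Fabp1 (972 FPKM against 1255 to 5415 FPKM). Cybrd1, which was not tested, had 6.05 FPKM in W83S and at most 0.503 FPKM elsewhere. The part of these cells in the clock values was not tested.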

How the data were processed

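The authors deposited FPKM, 1 value per gene and library, from 50 bp single-end reads trimmed with trim-galore, mapped to mm10 with HISAT2 and quantified with StringTie (versions not given in the sources used here). FPKM are not counts, so no counting interval was given and the precision rests on 3 mice per genotype. The paper lists the mapped reads of each library, which were fewest in K86S. The effect of read depth on weakly expressed genes was not tested. All 6 columns were matched to samples by title, with 0 left over.

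Identifiers were ranked by the K79S value beside them and rows by W83S, and joined with small offsets set for 12 rank ranges. Identifiers outside these ranges, Arntl among them, were dropped. As a check, values with at most 6 decimals, which mark a single transcript, made up 99.67% of the 3649 genes with 1 GENCODE M21 transcript and 5.8% of the 8748 with several, against 35.52% and 32.45% when shifted by 1 rank. In the 5 ranges that hold clock genes the 2 agreed for 93.7% to 96.3% of genes, and for at most 62.3% when shifted.

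Rows with FPKM of 1 or more in fewer than 2 libraries were removed, and 13089 were kept. log2(FPKM + 1) was fitted with limma 3.58.1 (R 4.3.3, trend, Benjamini-Hochberg adjustment over all rows) without covariates. Scripts were tested on simulated data. Fold changes on this scale understate those of weakly expressed genes. Members and lists were chosen with earlier results of these data known. Named were the members and, from each list, the 3 most abundant genes, those past the threshold and those without overlap. Some genes that this rule names are not reported here. Alternatives were other pseudocounts, filters and scalings, array weights and leaving out libraries.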

Additional observations from a re-analysis of the deposited data

How the results depend on the processing

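The number of rows past the thresholds was 1 over all libraries. It was 0 with pseudocounts of 0.1 and 0.01, 2 with array weights, 1111 without K82S and W83S, and between 0 and 1184 when single libraries were left out. Of the 9 clock genes 0 passed, and between 0 and 2 when single libraries were left out, the 2 being Dbp and Per3 without K82S. Of 126 values of single clock genes under alternatives, 19 had another sign. Leaving out single libraries moved the log2 fold change from -0.37 to 0.36 for Per1, from -0.17 to 0.45 for Per2, from -0.12 to 0.90 for Dbp, from -0.00069 to 0.35 for Nr1d2, from -0.31 to 0.35 for Tef and from -0.38 to 0.31 for Ciart. Tef turned to 0.10 with rescaling to a common sum, 0.01 with quantile normalization, 0.21 with array weights and 0.28 without K82S and W83S, and Ciart to 0.04 with rescaling and 0.17 with each of the last 2. Rescaling moved the median of all rows by 0.15, relative to which the median of the clock genes was 0.27, beside 0.23 as deposited. Clock, Per3 and Nr1d1 kept a positive sign under all 14 alternatives, but when single libraries were left out Clock moved from 0.21 to 0.48, Nr1d1 from 0.11 (without W83S) to 0.29, and Per3 from 0.03 (without K79S) and 0.12 (without K86S) to 0.70 (without K82S). The cause of these moves was not tested beyond the libraries named. No paired analysis was possible because the labels do not say which mice form pairs.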
